A study of Mus musculus with 6 samples.

Results

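The Hox genes, a family of homeobox transcription factors, were described in organoids grown from mouse mammary stem cells. Members were all genes with a symbol made of Hox, a cluster letter from a to d and a number in the platform annotation, read by a probe set that carries that symbol alone. This gave 36 genes of the 22180 with a single symbol: 9 of the HoxA cluster, 10 of HoxB, 9 of HoxC and 8 of HoxD. Hox genes without such a probe set are not analysed here. The 6 single-channel Affymetrix arrays comprise 3 from WT cells (wild type, replicates 1 to 3) and 3 from Mll3-null cells (replicates 1 to 3), to ask what loss of MLL3, an enhancer histone methyltransferase encoded by Kmt2c, does to these cells. The lines were made by CRISPR, both genotypes were cultured alike, and neither received a further treatment that the labels name. The labels give no strain, age, sex, edited part of Kmt2c or number of clones per genotype. Each array is labelled a biological replicate, but nothing says that they came from separate animals or lines, so a p-value here reflects the variation among these 6 cultures, which may be technical.

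Hox genes lie in 4 clusters on separate chromosomes, and within a cluster they are ordered by paralog group, from anterior members with low numbers to posterior members with high ones. In the embryo this order matches the order of their expression along the body axis, and many adult tissues keep part of that pattern. MLL1, a relative of MLL3 encoded by Kmt2a, maintains active Hox genes, Polycomb complexes keep them silent, and retinoic acid can switch on anterior members. Hox proteins bind DNA together with partners of the PBX and MEIS families. In the mammary gland the group 9 genes Hoxa9, Hoxb9 and Hoxd9 are together required for growth in pregnancy, and Hoxc8 has a part in where the mammary buds form.

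The labelled cell type was compared with its markers. All 8 epithelial markers measured (Epcam, Cdh1, Krt8, Krt18, Krt14, Krt17, Trp63 and Itgb4) had mean levels from 7.80 to 11.30 (log2, 6 arrays), while the 5 endothelial markers lay from 3.07 to 4.74, the 5 leukocyte markers from 3.15 to 5.35 and the 8 fibroblast markers from 2.99 to 5.54. The 6 neural and muscle markers were not all low. Their means ran from 3.06 to 7.95, and 2 of them, Map2 and Sox10, lay over 6. The source of their signal was not tested. Mll3-null replicate 3 stands apart from the other arrays. Its Krt14, a basal keratin, was at 6.65 against 11.74 to 12.43 elsewhere, and the mean of the 8 epithelial markers was 8.45 there against 10.36 to 10.63 in WT, while Epcam (10.72), Krt8 (10.57) and Krt18 (11.44) were not low. Of all genes, 2.77% lay more than 0.5 log2 units above, and 3.24% more than 0.5 below, the 5 other arrays on this array, against 0.122% to 0.726% in either direction on each of the others. Results that rest on it are therefore given with and without it. The targeted gene Kmt2c had a level of 6.01 ± 0.55 (SD, n = 3) in WT and of 6.11 ± 0.29 (SD, n = 3) in the Mll3-null arrays. Its probe set may lie outside the edited part, so this does not test the labels.

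No Hox gene reached a mean level of 6, above which 39.5% of all genes lay. The 36 means over the 6 arrays ran from 2.98 (Hoxc5) to 5.48 (Hoxb3) with a median of 3.94, against a median of 5.02 over all genes. Of the 36, 17 lay between 4 and 6 and 19 under 4, or 52.8% under 4 against 33.6% of all genes. The highest single value was 5.85, for Hoxb4 in WT replicate 3. Apart from Hoxc5, these means lie in the span of the leukocyte, endothelial and fibroblast markers, from 2.99 to 5.54. Probe sets differ in brightness at equal RNA and no detection values were used, so a low level does not show that a gene is silent, and the order of genes by level is not an order of transcript amounts.

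**Figure D1:**
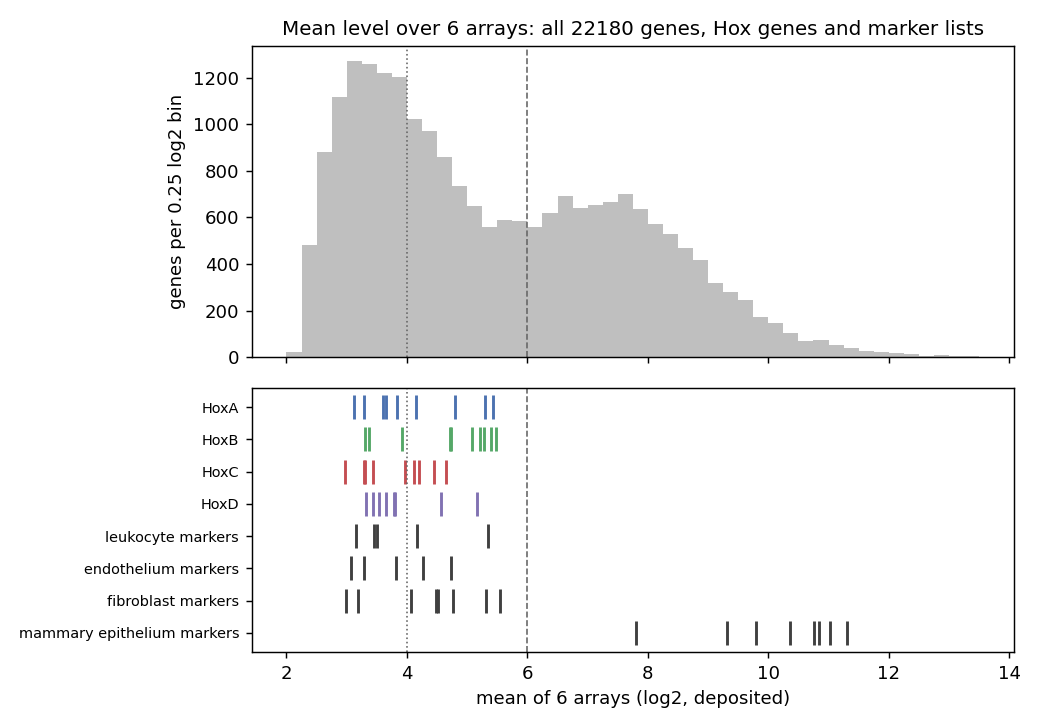
Upper panel, number of genes in each 0.25-wide bin of the mean level over 6 arrays (log2, all 22180 genes); lower panel, 1 tick per gene for the 4 Hox clusters and for marker lists of 4 cell types. Dotted and dashed lines mark 4 and 6. All 36 Hox genes lie left of 6, and the epithelial markers lie right of it.

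By cluster, HoxB had the largest share of members above 4, 7 of 10. The 5 HoxB genes from 5.08 to 5.48 were Hoxb2, Hoxb3, Hoxb4, Hoxb5 and Hoxb9, joined in the 4 to 6 class by Hoxb1 (4.74) and Hoxb13 (4.72), a gene known from the prostate. In HoxA, Hoxa4 (5.43), Hoxa6 (5.30), Hoxa7 (4.80) and Hoxa13 (4.15) lay above 4 and the other 5 below it. In HoxC, Hoxc9, Hoxc10, Hoxc12 and Hoxc13 lay above 4, none over 4.65. HoxD had 2 members above 4, Hoxd8 at 4.57 and Hoxd10, a gene of the lumbar spinal cord and hindlimb, at 5.17. Along the clusters, the median was 3.81 for the 7 anterior genes (groups 1 to 3), 3.94 for the 14 central genes (groups 4 to 8) and 4.11 for the 15 posterior genes (groups 9 to 13). The mammary group 9 genes were at 3.66 (Hoxa9), 5.28 (Hoxb9) and 3.32 (Hoxd9), and Hoxc8 was at 3.96.

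**Figure D2:**
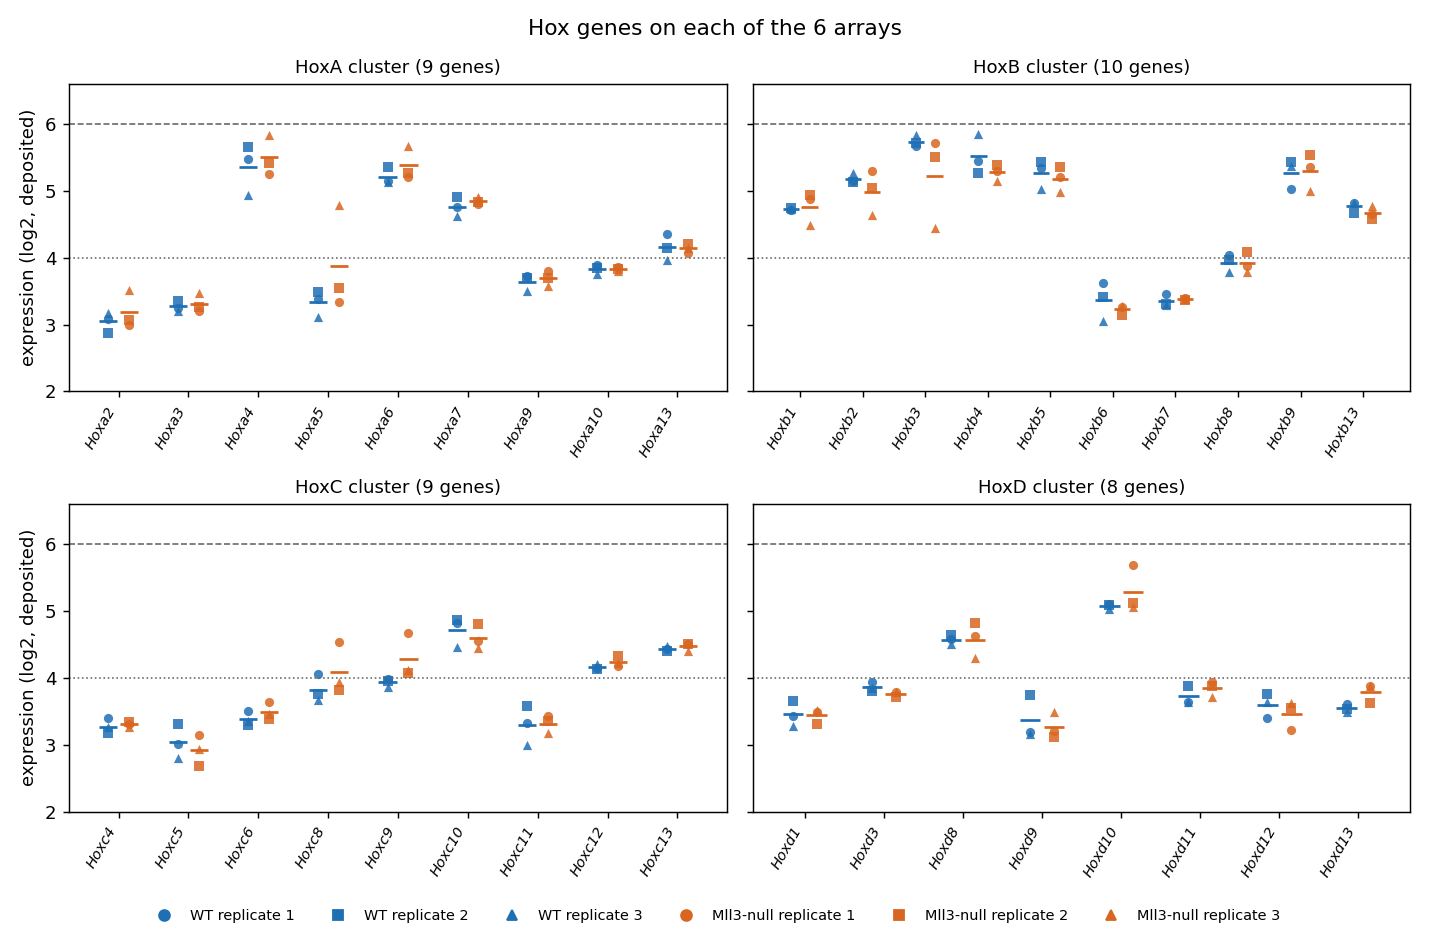
Level of each measured Hox gene on each array (y axis, deposited log2 value), by cluster and paralog group; blue is WT, orange Mll3-null, the marker shape gives the replicate, and the short bar is the mean of 3 arrays. Dotted and dashed lines mark 4 and 6. Most genes sit within a narrow band on all arrays, while Hoxa5 and Hoxb3 each have 1 distant array, Mll3-null replicate 3.

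No Hox gene passed the test between the genotypes. With limma's moderated test over all 22180 genes, 0 of 36 members and 0% of all genes had an adjusted p under 0.05 (Benjamini-Hochberg), and the smallest adjusted p among the members was 0.84. At an unadjusted p under 0.05 there was 1 member, Hoxd13, higher in Mll3-null cells, or 2.78% of 36, against 4.93% of all genes in either direction and 2.51% on the higher side. Differences, Mll3-null minus WT, ran from -0.51 (Hoxb3) to 0.55 (Hoxa5) with a median of 0.03, against 0.01 over all genes, and 21 members had a higher and 15 a lower mean. The median size of a difference, whatever its sign, was 0.10 both among the members and over all genes. The 95% interval lay within 1 log2 unit of 0, that is within a 2-fold change either way, for 34 of the 36 members, the exceptions being Hoxa5 and Hoxb3, and within 0.5 units for 23. For dim genes, array values compress real changes, so these intervals limit the change of the measured signal and not that of the transcript.

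**Figure D3:**
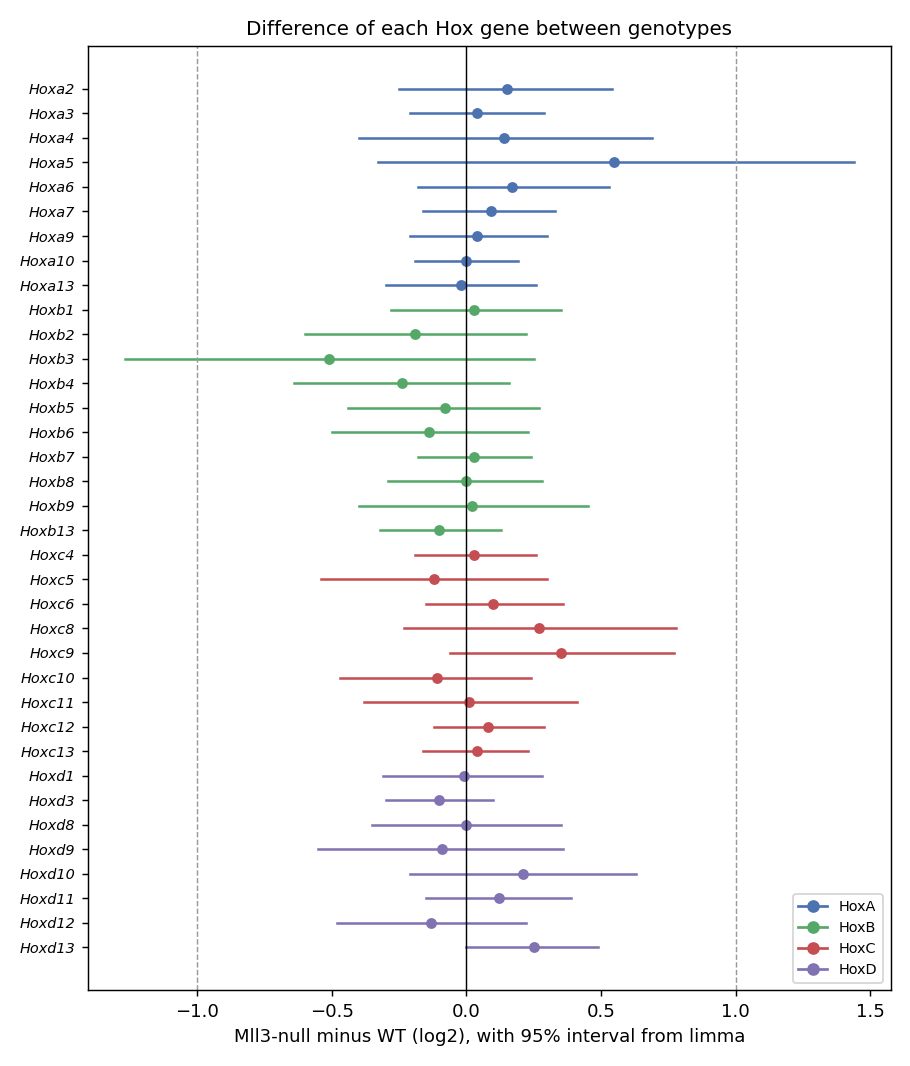
Difference of each Hox gene between genotypes (x axis, Mll3-null minus WT, log2) as a point with its 95% interval from limma over 3 arrays per group; colours give the cluster and dashed lines a 2-fold change. The intervals of Hoxa5 and Hoxb3 are the 2 that pass a dashed line.

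The genotypes did not overlap for 3 of the 36 members (8.33%), where 10.7% of all genes had non-overlapping groups. Mll3-null arrays lay above WT for 2 members (5.44% of all genes) and below for 1 (5.31%). Hoxd13, a gene of digit and genital development, was at 3.60, 3.53 and 3.49 in WT replicates 1 to 3 and at 3.87, 3.62 and 3.87 in Mll3-null replicates 1 to 3. All of its values were under 4, and Mll3-null replicate 2 lay just above the highest WT array. The difference of 0.25 ± 0.10 (SE) had an unadjusted p of 0.049 and an adjusted p of 0.84 (limma). The unadjusted p stayed under 0.05 without Mll3-null replicate 2, and not without any of the 5 other arrays. Hoxc9, a thoracic gene, was at 3.98, 3.95 and 3.86 in WT and at 4.67, 4.07 and 4.11 in Mll3-null cells. Here 1 array, Mll3-null replicate 1, was clearly higher, and the other Mll3-null arrays lay close to WT. Its difference of 0.35 ± 0.17 (adjusted p = 0.84, limma) was 0.16 without that array. Hoxd3, an anterior gene of the neck vertebrae, was at 3.94, 3.80 and 3.85 in WT and at 3.79, 3.71 and 3.78 in Mll3-null cells, lower by a margin smaller than the spread within WT (difference -0.10 ± 0.08, adjusted p = 0.85, limma). Without Mll3-null replicate 3 the groups did not overlap for 8 members (22.2%), against 18.9% of all genes. Leaving out any single array raised the share of all genes, to between 17.9% and 29.8%. The members' share was also above that of all genes without WT replicate 1 or 2. It was below without WT replicate 3 (16.7% against 20.7%), Mll3-null replicate 1 (19.4% against 29.8%) or Mll3-null replicate 2 (8.33% against 17.9%). Hoxb5, the one member with a second probe set of its own, depended on which was read. On the brighter one, used here, the groups overlapped, at 5.34, 5.43 and 5.02 in WT and 5.20, 5.35 and 4.98 in Mll3-null cells. On the dimmer one the order was turned without overlap, at 4.12, 4.25 and 4.26 in WT and 4.48, 4.50 and 4.69 in Mll3-null cells.

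By cluster, 8 of 9 HoxA genes had a higher mean in Mll3-null cells (median difference 0.09), 7 of 10 HoxB genes a lower one (-0.09), 7 of 9 HoxC genes a higher one (0.04) and 5 of 8 HoxD genes a lower one (-0.01). Of all genes 51.5% had a higher mean. None of these counts rests on a gene that passed the test. The HoxA count fell to 5 of 9 without Mll3-null replicate 3 and also to 5 of 9 without WT replicate 3, and the HoxB median became 0.00, with 5 genes on each side, without Mll3-null replicate 3. With Hoxb5 read by its dimmer probe set or by the average of both, 6 of 10 HoxB genes were lower (median -0.05). With array weights 5 of 10 were lower (median -0.07). The HoxD count turned to 6 of 8 higher (median 0.09) without WT replicate 2, and the HoxC count stayed at 6 or 7 of 9 higher whichever array was left out. Over all 36 members, 17 to 25 had a higher mean when single arrays were left out, the fewest without WT replicate 3. WT replicate 3 held the lowest value of 8 of the 9 HoxA genes and of 17 of all 36 members (47.2%), where it did so for 25.4% of genes with a mean under 4, 26.3% of those from 4 to 6 and 5.31% of those over 6. The part of this low end in the HoxA difference was not tested.

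The widest spreads among the Hox genes came from single arrays. The spread from the lowest to the highest array had a median of 0.45 log2 units over the members, against 0.42 over all genes, and passed 1 unit for 2 members (5.56%), Hoxa5 and Hoxb3, against 10.5% of all genes. One array lay more than 0.5 from all 5 others, a limit chosen after the values were seen, for 4 members: Hoxa5, Hoxb3, Hoxc9 and Hoxd10. That is 11.1% of 36, against 8.45% of all genes. All 4 distant arrays were Mll3-null, 2 of them replicate 3 and 2 replicate 1. Over all genes, Mll3-null replicate 3 was also the array most often this far off, above for 2.77% and below for 3.24%. The shares were 0.352% and 0.176% on Mll3-null replicate 1, and from 0.122% to 0.726% in either direction on the WT arrays.

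Hoxa5, a central gene needed for lung development, was at 3.38, 3.49 and 3.12 in WT and at 3.33, 3.54 and 4.78 in Mll3-null cells. The first 5 arrays were alike, and Mll3-null replicate 3 lay 1.23 above the next. The difference of 0.55 ± 0.37 (adjusted p = 0.84, limma) was 0.11 without that array. High values on this array ran along the anterior and central part of the cluster: Hoxa2, Hoxa3, Hoxa4, Hoxa5 and Hoxa6 all had their highest value there, 5 of 9 members, where 24.4% of all genes did. The share was 19.1% of genes with a mean under 4 and 21.8% of those from 4 to 6. Hoxa6 was at 5.67 there against 5.13 to 5.36 in WT. A probe set shared by Hoxa7 and the intergenic RNA Mira was at 4.21 there against 3.32 to 3.66 on the other arrays. The probe set of Hoxa7 alone, at 4.90, was not highest there, WT replicate 2 being at 4.91. A probe set shared by Hoxa3 and 5730446D14Rik was at 5.28 there, below 5.48 on Mll3-null replicate 1. Hoxa9, Hoxa10 and Hoxa13, at 3.57, 3.80 and 4.14, lay within the range of the others. The median of the other 1192 genes of chromosome 6 lay at 0.00 on this array relative to the 6-array mean, against 0.18 for HoxA. The RefSeq model of Hoxa3 spans Hoxa4, Hoxa5 and Hoxa6, so the probe sets of these genes may read overlapping transcripts.

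Hoxb3, an anterior gene of the hindbrain, showed the opposite on the same array. It was at 5.67, 5.71 and 5.83 in WT and at 5.71, 5.51 and 4.45 in Mll3-null cells. Mll3-null replicate 3 lay 1.06 below the next array, and the groups overlapped. The difference of -0.51 ± 0.32 (adjusted p = 0.84, limma) was -0.13 without it. Hoxb2, its neighbour, was at 4.63 there against 5.04 to 5.29 on the others, and a probe set shared by Hoxb3 and Hoxb2 was at 4.66 against 5.13 to 5.54. In all, 6 of 10 HoxB genes had their lowest value on this array. There 21.4% of all genes did, 14.7% of those with a mean under 4 and 19.6% of those from 4 to 6. The HoxB median on this array lay at -0.25 against 0.00 for the other 1639 genes of chromosome 11. Hoxb5 is among the 6 by its brighter probe set (4.98), while its dimmer one had its highest value there (4.69). Krt14, on the same chromosome and a marker of basal cells, was also lowest there. So was the epithelial marker Trp63, on chromosome 16, at 5.02 against 7.86 to 8.84 on the others. In a bulk sample, fewer cells of a type and less RNA per cell cannot be told apart, and the part of the loss of basal keratins in the Hox values was not tested.

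Mll3-null replicate 1 was high for a different set. Hoxc8 was at 4.06, 3.75 and 3.66 in WT and at 4.53, 3.82 and 3.93 in Mll3-null cells. Together with its neighbours Hoxc9 (above) and Hoxc6, at 3.64 against 3.30 to 3.50 on the other arrays, it had its highest value on that array. The difference of Hoxc8, 0.27 ± 0.21 (adjusted p = 0.84, limma), was 0.05 without it. Hoxd10 behaved likewise, at 5.10, 5.08 and 5.02 in WT and at 5.68, 5.11 and 5.05 in Mll3-null cells. Its difference of 0.21 ± 0.17 (adjusted p = 0.85, limma) was 0.01 without Mll3-null replicate 1. Leaving out Mll3-null replicate 3 gave 0.33 for Hoxd10. In all, 3 of 9 HoxC and 3 of 8 HoxD genes were highest on Mll3-null replicate 1, where 14.2% of all genes were. Besides Hoxd10, the HoxD genes were Hoxd11, at 3.94 against 3.64 to 3.88, and Hoxd13, at 3.87 there and on Mll3-null replicate 3. Others were not raised there: Hoxc10 was at 4.55 against 4.44 to 4.86 on the other arrays, and Hoxd9 at 3.21 against 3.11 to 3.74. These counts are not particular to that array. WT replicate 2 also held the highest value of 3 of 9 HoxC and 3 of 8 HoxD genes, against 18.5% of all genes.

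**Figure D4:**
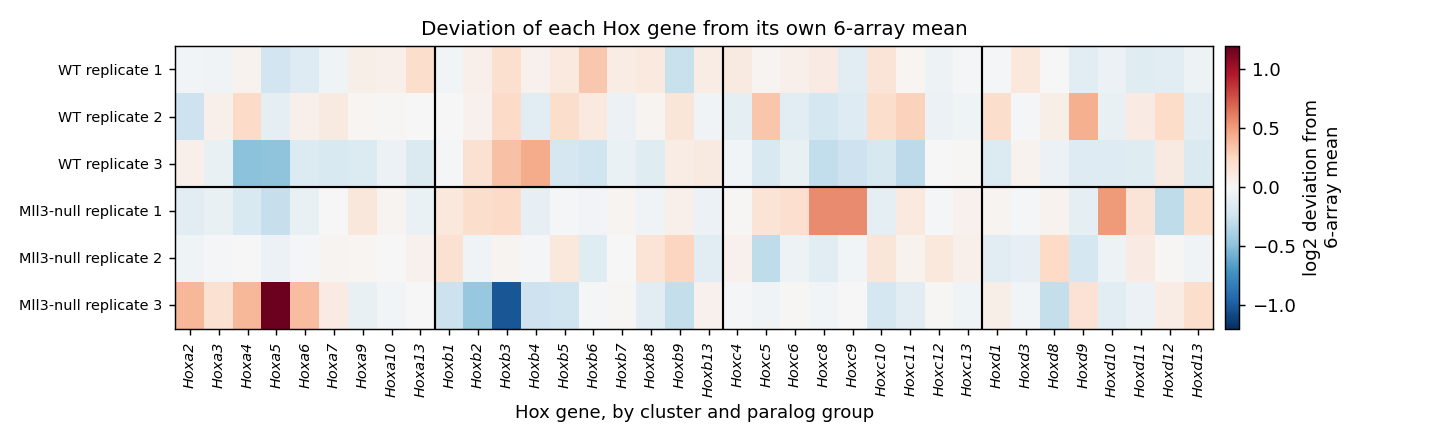
Deviation of each Hox gene from its own mean over 6 arrays (colour, log2), with arrays in rows (WT above the line, Mll3-null below) and genes in columns by cluster and paralog group. Mll3-null replicate 3 is red at Hoxa2 to Hoxa6 and blue at Hoxb1 to Hoxb5, and Mll3-null replicate 1 is red at Hoxc8, Hoxc9 and Hoxd10.

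Promoters are shown for the members with a distant array or an unadjusted p under 0.05 that the RefSeq promoter table holds, because CpG-rich promoters of this kind are where MLL1 and Polycomb complexes are known to act. Each is the 250 bases before the annotated start (GRCm38.p6), 5′ to 3′ on the gene's strand, with CpG dinucleotides in capitals. They lie at chr6:52204588-52204837 (minus strand, Hoxa5), chr2:74691641-74691890 (plus strand, Hoxd10) and chr2:74667975-74668224 (plus strand, Hoxd13).
Hoxa5: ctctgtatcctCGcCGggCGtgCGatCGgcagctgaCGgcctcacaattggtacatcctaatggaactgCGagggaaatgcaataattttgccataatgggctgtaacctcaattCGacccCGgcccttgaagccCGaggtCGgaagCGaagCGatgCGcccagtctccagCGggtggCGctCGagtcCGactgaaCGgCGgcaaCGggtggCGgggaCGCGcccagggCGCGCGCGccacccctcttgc
Hoxd10: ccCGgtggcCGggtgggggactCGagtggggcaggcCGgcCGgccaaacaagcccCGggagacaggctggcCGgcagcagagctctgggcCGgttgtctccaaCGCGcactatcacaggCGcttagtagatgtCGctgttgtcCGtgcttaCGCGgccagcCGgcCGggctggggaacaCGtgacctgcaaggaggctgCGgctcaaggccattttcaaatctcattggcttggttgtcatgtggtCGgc
Hoxd13: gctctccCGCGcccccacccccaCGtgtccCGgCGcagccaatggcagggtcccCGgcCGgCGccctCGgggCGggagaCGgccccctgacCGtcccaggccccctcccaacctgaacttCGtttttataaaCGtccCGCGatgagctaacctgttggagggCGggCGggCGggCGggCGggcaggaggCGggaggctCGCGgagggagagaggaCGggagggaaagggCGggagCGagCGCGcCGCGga
Hoxa5 has 28 CpG in this window, as many or more being found in 7.61% of the 32851 windows of that length in the table. Hoxd10 has 20 (17.9%) and Hoxd13 has 31 (5.19%). Over the 22 starts of 20 measured Hox genes in the table the median was 12.5, from 2 to 35, against 6 over all windows. The motif TATAAA, searched on both strands, was in 3 of the 22 Hox windows (13.6%), that of Hoxd13 among them, and in 12.4% of all windows. The motif TGATTNAT, a site for Hox proteins with PBX partners, was in 2 of 22 (9.09%), those of Hoxa2 and of 1 start of Hoxd11, and in 2.82% of all. A match is a description of letters only, and these arrays hold no measure of binding or methylation.

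The clusters also encode long non-coding RNAs and microRNAs, of which 6 of 18 listed had a probe set of their own, none past the test and with a median difference of 0.01. Hotair, transcribed from the HoxC cluster and known to bind Polycomb complexes, was at 3.97, 4.06 and 4.23 in WT and at 4.35, 4.46 and 4.33 in Mll3-null cells. The groups did not overlap, but the difference of 0.30 ± 0.10 (unadjusted p = 0.023) had an adjusted p of 0.84 (limma). Hoxaas3, an antisense RNA of HoxA, was at 4.38, 4.25 and 4.14 in WT and at 3.90, 4.09 and 4.05 in Mll3-null cells, the opposite order, with a difference of -0.25 ± 0.10 (adjusted p = 0.84, limma). Hoxd3os1 differed by 0.02 ± 0.13. The probe sets named for microRNA genes come from arrays of labelled total RNA, and the labels do not say whether they read the precursor or the mature form. The mature 5p sequences of Mir10b, Mir196a-1 and Mir196a-2 are given from RefSeq (GRCm38.p6), with bases 2 to 8, the seed that pairs with targets, in capitals.
miR-10b-5p: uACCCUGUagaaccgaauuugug
miR-196a-5p: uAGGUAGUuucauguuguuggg
The miR-196a sequence is the same from Mir196a-1 on chromosome 11, in HoxB, and Mir196a-2 on chromosome 15, in HoxC. Mir10b, in HoxD, had a level of 2.59 to 2.75 on all 6 arrays. Mir196a-1 spanned 2.13 log2 units, against 1.66 for Hoxa5, the widest of the Hox genes. It was at 4.15, 5.13 and 3.51 in WT and 3.85, 5.43 and 3.30 in Mll3-null cells. It was highest in replicate 2 and lowest in replicate 3 of both genotypes, and its difference of -0.07 ± 0.63 had a 95% interval from -1.57 to 1.43. Mir196a-2 ran from 3.71 to 4.12.

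Of 14 genes measured just outside the clusters, 7 had a mean over 6, among them Skap2 beside HoxA (8.49), Calcoco1 near HoxC (9.28) and Mtx2 near HoxD (9.28). None of the 14 passed the test (median difference 0.08). Atf7, near HoxC, differed by 0.35 ± 0.18, or 0.18 without Mll3-null replicate 3, where it was highest (9.55). Evx1, the homeobox gene beside Hoxa13, differed by 0.15 ± 0.08, at a level of 3.84. The ParaHox genes, a sister family, had 6 of 6 measured members under 6 (3.68 to 5.07) and none past the test, with Cdx2 at a difference of 0.18 ± 0.11 (0.29 without Mll3-null replicate 3) and Gsx2 at 0.13 ± 0.18.

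None of the measured partners and regulators of Hox genes passed the test. Of 8 PBX, MEIS and PREP partners, Pbx3 alone had a mean over 6, at 6.15, and 6 had a lower mean in Mll3-null cells (median -0.02). Pbx3 was at 6.24, 6.43 and 6.43 in WT and at 6.48, 6.01 and 5.30 in Mll3-null cells, lowest on the array where Hoxb3 was lowest. Its difference of -0.44 ± 0.28 was -0.12 without Mll3-null replicate 3. Meis1 differed by -0.30 ± 0.17, or by -0.14 without WT replicate 2 and -0.45 without WT replicate 3. Of 17 Polycomb genes 14 had a mean over 6, with 10 higher and 7 lower in Mll3-null cells (median 0.07). The subunits Phc2 and Mtf2 had the smallest p, with differences of -0.23 ± 0.09 and -0.22 ± 0.10 (adjusted p = 0.84 for both, limma). All 15 MLL and trithorax genes had a mean over 6 (median difference -0.01), Kmt2a among them at 7.94. Kdm6a differed by 0.20 ± 0.10 (0.13 without WT replicate 2) and Dpy30 by -0.21 ± 0.10.

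Of 13 genes of retinoic acid handling and reception, 10 had a lower mean in Mll3-null cells (median -0.07), and none passed the test. Stra6, the receptor that takes up retinol, was at 6.38, 6.30 and 4.53 in WT and at 4.48, 4.80 and 4.22 in Mll3-null cells. WT replicate 3 lay among the Mll3-null arrays, and the difference of -1.24 ± 0.50 (unadjusted p = 0.043, adjusted p = 0.84, limma) was -0.92 without WT replicate 1 and -1.84 without WT replicate 3. Cyp26a1, which degrades retinoic acid and is itself induced by it, was at 4.82, 5.32 and 4.82 in WT and at 4.67, 4.82 and 4.10 in Mll3-null cells. The groups did not overlap, but only narrowly, since the lowest WT and highest Mll3-null values both round to 4.82. The difference of -0.46 ± 0.23 was -0.25 without Mll3-null replicate 3 and -0.30 without WT replicate 2. Crabp2, a carrier of retinoic acid to its receptor, was at 6.05 in Mll3-null replicate 3 against 9.79 to 10.97 on the other 5 arrays, and was named after its values were seen. That is the array where Hoxa5 was high and Hoxb3 low, and the part of Crabp2 in those values was not tested.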

How the data were processed

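The arrays measured biotinylated cRNA from total RNA, per the labels' protocols, and Affymetrix Expression Console was used, per the submitters' processing notes, with no version, summarization method or build named. Deposited values were read as log2, since they lie between 1.72 and 13.56 and their quartiles nearly match between arrays. They share a scale, so total RNA per cell is not visible. Of 41345 probe sets 23521 had 1 symbol, and the brightest on average stood for each of 22180 genes, a choice that among Hox genes touched Hoxb5 alone. Of 7 probe sets shared with another gene, those used are named.

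Genotype was the only term in limma 3.58.1 (R 4.3.3; lmFit, eBayes, two-sided), with Benjamini-Hochberg adjustment over all genes at 0.05. Clusters and lists have counts and medians, no test. Members, lists and the limits of 4 and 6 were chosen with earlier results of these data known. Hox genes with a mean over 6, an unadjusted p under 0.05 or a difference of 1 log2 unit were to be given on every array. Hoxd13 alone met this, and others so shown were chosen after their values were seen. Other lists give the 2 genes of smallest p. The 4 adipocyte markers lay from 3.04 to 4.45. The fit was tested on simulated data with known changes. Alternatives were another spread model, array weights, a dim-gene filter, quantile or median scaling, other probe set rules, the replicate number as a block, and each array left out. The number of arrays limits the precision.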

Additional observations from a re-analysis of the deposited data

How the results depend on the processing

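Under every alternative run, 0 Hox genes and 0 of all genes had an adjusted p under 0.05 (limma). At an unadjusted p under 0.05 the members numbered from 0 to 2 over the alternatives, against 3.23% of all genes without Mll3-null replicate 2, 11.3% with array weights and 12.4% without Mll3-null replicate 1; Hoxd13 was not among them with array weights, quantile normalization, median centring, the replicate block or in 5 of the 6 fits that left out an array, and the filter on dim genes removed it. The probe set of highest variance put Hoxb5 there, higher in Mll3-null cells instead of lower, leaving out WT replicate 3 put Hoxb6 there, and leaving out Mll3-null replicate 1 put Hoxb3 there. The HoxD median difference, -0.01, was 0.11 when genes with a mean under 4 were left out, which leaves 2 HoxD genes, and ranged from -0.07 to 0.09 when single arrays were left out. The other cluster medians moved by less than the replicate spread: leaving out single arrays gave 0.01 to 0.11 for HoxA, -0.10 to 0.00 for HoxB and 0.02 to 0.09 for HoxC. Quantile normalization changed the HoxA and HoxB medians to 0.06 and -0.11, and the count of members with a higher mean, 21, was 18 with median centring, 26 with array weights, 17 without WT replicate 3 and 25 without WT replicate 2. Of the genes named with a difference, Kmt2c changed direction without WT replicate 2 (-0.11) or Mll3-null replicate 2 (-0.06) and ranged up to 0.41 without WT replicate 1, and Gsx2 changed direction without WT replicate 3 (-0.05) and ranged up to 0.29; the cause was not tested. The labels do not tie the replicate numbers to a shared animal, line or day, so the numbers were not taken to pair the samples. Deviations of same-numbered arrays correlated at 0.03, 0.08 and 0.31 for replicates 1 to 3. With the replicate block the differences are the same by construction, 0 genes were called, and 5.82% of all genes had an unadjusted p under 0.05. Most Hox signals lie in the dim range, where probe background limits what a difference can show.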
